A study of Homo sapiens and Mus musculus with 21 samples.

Results

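The mouse transcripts of 6 caecum samples are described here, 3 from hosts of SW620 Cas9 tumours and 3 from hosts of SW620 Mock tumours, out of 21 samples in the mouse table of the series. They were found by their sample titles. SW620 is a human colon carcinoma line. The Cas9 cells had been carried through transfection and sorting as the control for a CRISPR knock-out of the Wnt co-receptor LRP6, and the Mock cells through a lentiviral transduction as the control for dnLEF1, a version of the Wnt-responsive transcription factor LEF1 that blocks it. Neither derivative therefore carries a change aimed at Wnt signalling, and the comparison asks how far the host tissue differed between 2 control tumours. The controls differ in the way of delivery and in sorting, which cannot be told apart.

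All hosts were NSG mice, an immunodeficient strain that lacks T, B and NK cells and keeps myeloid cells. Each xenograft host received 500000 cells in the caecum wall, and tissue was taken after 28 days. The series also holds hosts of SW620 dnLEF1, SW620 LRP6KO, SW480 dnLEF1 and SW480 Mock tumours and mice given phosphate-buffered saline (PBS) in place of cells, with 3 samples each. The labels give no age, date or batch and do not say that each sample is its own animal. P-values therefore measure the spread between these samples, which may be partly technical.

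As background, the caecum is the blind pouch at the start of the large intestine. Its wall is made of an absorptive and mucus-secreting epithelium renewed from crypts by Wnt signalling, and of connective tissue, vessels, enteric nerves and smooth muscle. A tumour growing in the wall displaces some of this tissue and draws in fibroblasts, vessels and myeloid cells, and in bulk RNA a smaller number of cells of a type and less RNA per cell cannot be told apart.

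The values are TPM, transcript abundance scaled for length and set to a sum of 1000000 mouse transcripts per library. Depth is unknown, and so is the share of tumour in a sample. The mouse table names genes by Ensembl identifier alone. Only name tables of human genes were at hand, so none of the 54146 mouse identifiers could be matched to a name. Genes are therefore given here by identifier and as groups defined by their measured change. For the same reason the caecum label was not checked against marker genes.

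Cas9 hosts differed from Mock hosts in 291 of 19672 genes tested (1.48%). Among these, 210 genes were higher in Cas9 hosts (1.07%) and 81 were lower (0.412%), by limma on log2(TPM + 1) at an adjusted p of 0.05. With the compared groups alone in the fit, 15 genes passed, 6 higher and 9 lower, and 8 of these were among the 291. The higher genes had a median level of 20.9 TPM in Cas9 hosts, 9.00 TPM in Mock hosts and 5.23 TPM in PBS mice. The lower genes had a median level of 36.2 TPM in Cas9 hosts, 81.1 TPM in Mock hosts and 88.9 TPM in PBS mice. By these medians the higher genes stood lowest in the mice without tumour, and the lower genes stood highest there.

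The median size of the change among called genes was alike in both directions. Genes were called on the difference relative to its standard error, so the choice partly sets these medians. The median absolute log2 difference was 1.06 for the 210 higher genes and 1.06 for the 81 lower genes, with a median standard error of 0.22 in each set. Without genes listed at 0 in any of the 6 libraries, these medians were 1.04 and 0.99. Over all genes tested the median absolute difference was 0.212, and the median signed difference was 0.039. At least 1 log2 unit separated the groups in 120 of the 210 higher and 43 of the 81 lower genes. At least 2 units did so in 12 of the 210 and 11 of the 81, and the largest absolute differences were 5.38 and 7.10. The genes with these largest differences were listed at 0 in every library of 1 group, so the sizes depend on the pseudocount. With a pseudocount of 0.1 the signed differences were 8.67 and -10.4. In none of the 291 genes did the 3 Cas9 and 3 Mock values overlap, and over all genes tested the groups did not overlap in 21.3%, with Cas9 hosts above in 13.3% and below in 7.95%.

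**Figure D1:**
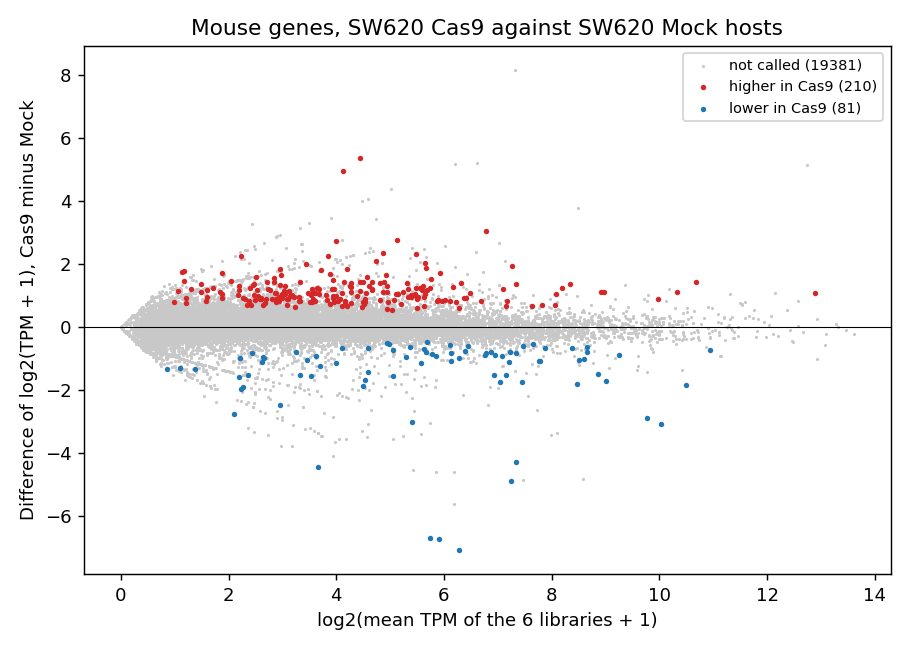
Difference of log2(TPM + 1), Cas9 minus Mock hosts, against the mean level of the 6 libraries on a log2 scale; each point is 1 of 19672 mouse genes, red for the 210 called higher in Cas9 hosts, blue for the 81 called lower and grey for the rest. At 100 TPM and above, 32 points are blue and 19 red; below 5 TPM, 10 are blue and 37 red.

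Calls in each direction were counted by the level of the gene. Among the 9030 genes below 5 TPM over the 6 libraries, 37 were higher and 10 lower in Cas9 hosts. Between 5 and 20 TPM, 85 of 5186 genes were higher and 13 lower. From 20 to 100 TPM, 69 of 3930 were higher and 26 lower. At 100 TPM and above, 19 of 1526 genes were higher and 32 lower. The difference between these bands was not tested. As a share of all mouse TPM, the 210 higher genes held 2.45% to 2.67% in Cas9 hosts against 0.977% to 1.60% in Mock hosts. The 81 lower genes held 0.702% to 0.801% in Cas9 hosts against 1.59% to 2.18% in Mock hosts. The genes were chosen on these same libraries, so the direction of both differences was set by the choice.

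The calls with the smallest p were genes present in every one of the 6 libraries, as were 17029 of the 19672 genes tested. The 10 such genes among the higher calls rose by 0.77 to 2.37 log2 units (standard errors 0.11 to 0.37, limma adjusted p 5.16e-04 to 0.0141), from group means of 1.77 to 56.1 TPM in Mock hosts to 5.35 to 107.8 TPM in Cas9 hosts. The 10 among the lower calls had differences of -4.89 to -0.92 log2 units (standard errors 0.14 to 0.66, limma adjusted p 0.00285 to 0.0147), with group means of 6.53 to 1544 TPM in Mock hosts and 1.70 to 255.9 TPM in Cas9 hosts.

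The single genes named are the 2 largest differences each way among called genes of at least 5 TPM in 1 group. The rule led to genes listed at 0 in most or all libraries of one group, for which no fold is given. ENSMUSG00000101730.1 was at 30.4, 47.3 and 47.0 TPM in Cas9 hosts and listed at 0 in all 3 Mock hosts (limma adjusted p 0.0348). It was also listed at 0 in every PBS, SW480 dnLEF1 and SW620 LRP6KO library, and stood at 23.0, 0 and 33.9 TPM in SW620 dnLEF1 hosts. In SW480 Mock hosts it was at 0, 42.3 and 0 TPM, so that replicate 2 of that group lay within the Cas9 range. ENSMUSG00000086922.2 was at 47.5, 16.4 and 35.2 TPM in Cas9 hosts and at 0, 0.01 and 0 TPM in Mock hosts (limma adjusted p 0.042). The other groups did not set Cas9 hosts apart from mice without tumour as clearly for this gene, since PBS mice had 16.0, 0 and 6.87 TPM. SW620 dnLEF1 hosts had 15.9, 18.1 and 14.35 TPM, and SW620 LRP6KO hosts 7.92, 6.17 and 0 TPM. SW480 dnLEF1 hosts had 0, 17.5 and 24.65 TPM, and SW480 Mock hosts 1.56, 14.3 and 10.7 TPM. The SW620 Mock hosts were the only group at 0.01 TPM or below in every library.

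In the other direction, ENSMUSG00000076355.2 was listed at 0 in all 3 Cas9 hosts and stood at 119, 81.8 and 258 TPM in Mock hosts (limma adjusted p 0.0346). PBS mice had 161, 276 and 148 TPM, all above 0 like the Mock hosts. ENSMUSG00000106626.1 was listed at 0 in all 3 Cas9 hosts and stood at 184, 57.5 and 113 TPM in Mock hosts (limma adjusted p 0.0248), with 73.4, 48.6 and 203 TPM in PBS mice. In SW620 dnLEF1 and SW620 LRP6KO hosts these 2 genes were listed at 0 in some libraries and present in others. None of the 4 genes passed when any 1 of the Cas9 libraries, Mock replicate 1 or Mock replicate 2 was left out (adjusted p 0.0518 to 0.175), or with no filter on low values (0.0596 to 0.104). Without Mock replicate 3, ENSMUSG00000086922.2 (0.0536) and ENSMUSG00000076355.2 (0.0555) did not pass, and with a pseudocount of 0.1 ENSMUSG00000086922.2 did not (0.0525).

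**Figure D2:**
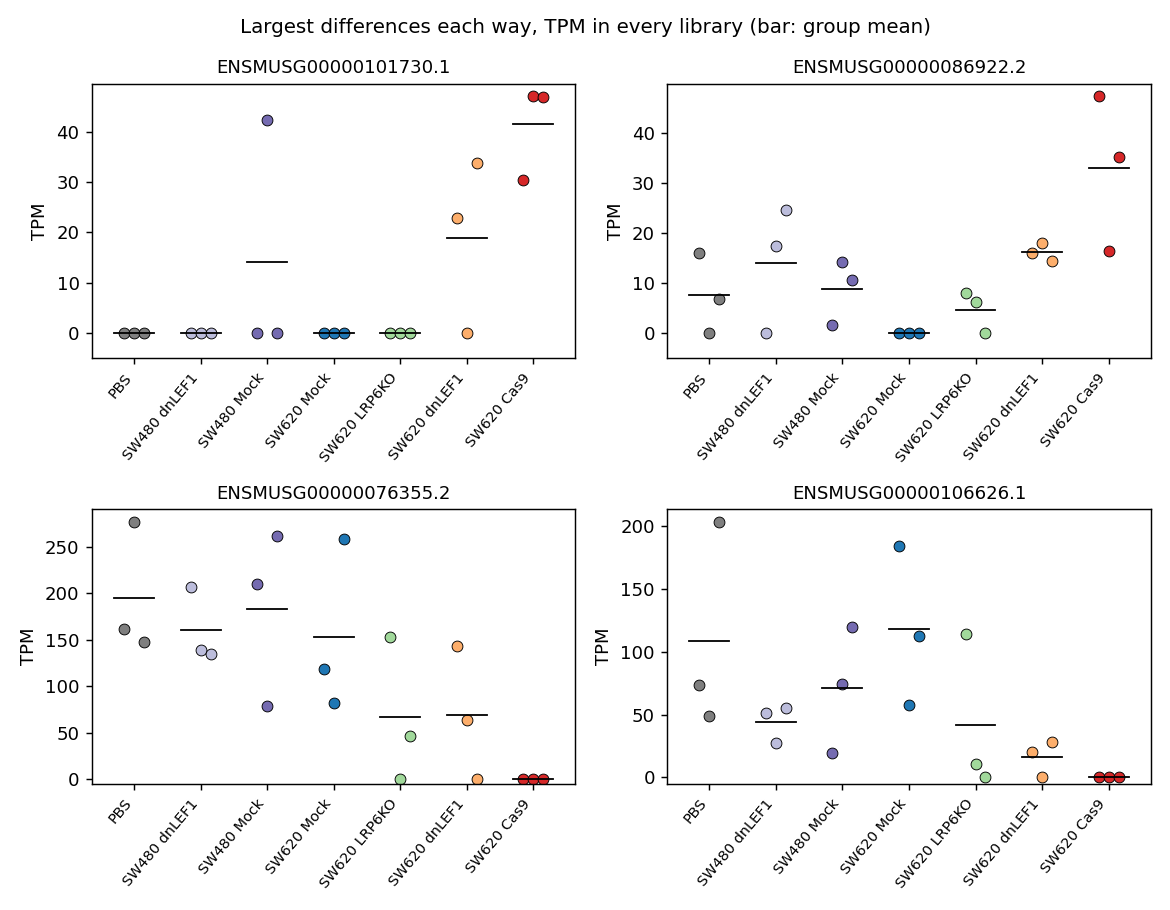
TPM of the 4 named genes in each of the 21 libraries, by group, with points for libraries and a bar for the group mean. The upper genes are at 16.4 to 47.5 TPM in Cas9 hosts and at 0 to 0.01 TPM in Mock hosts, and the lower genes are at 0 in all Cas9 hosts and at 57.5 to 258 TPM in Mock hosts.

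Most of the 291 genes lay on the same side of PBS mice in hosts of other SW620 tumours. Libraries of these hosts and of PBS mice gave no value to the difference between Cas9 and Mock, but they entered the filter and the pooled spread by which the 291 genes passed, so they are not wholly outside the choice of genes. In SW620 LRP6KO hosts, 206 of the 210 higher genes lay above PBS, with a median difference of 1.29 log2 units, and 78 of the 81 lower genes lay below PBS, with a median of -1.01. Over all genes tested in these hosts, 60.6% lay above PBS, 38.5% lay below and the median was 0.10. By limma, 176 of the 210 passed as higher than PBS (83.8%, against 9.92% of all genes), and 64 of the 81 as lower (79%, against 2.52%). None passed in the opposite direction. All genes tested are not matched to the 291 in level. Over the 6 Cas9 and Mock libraries, 9030 of the 19672 lay below 5 TPM, against 37 of the 210 and 10 of the 81. This limit also holds for the shares of all genes given for the other hosts below.

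SW620 dnLEF1 hosts gave like counts. Of the 210 higher genes 209 lay above PBS (median 1.33), and 75 of the 81 lower genes lay below (median -0.87), against 53.3% above and 45.5% below among all genes. As higher than PBS 176 of the 210 passed (83.8%, against 8.64% of all genes), and as lower 53 of the 81 (65.4%, against 2.98%). With the 6 Cas9 and Mock libraries taken out of the fit, 171 higher and 59 lower genes passed in LRP6KO hosts. Among all genes tested, 1692 passed as higher and 394 as lower in LRP6KO hosts in that fit. In dnLEF1 hosts 174 higher and 45 lower genes passed, and among all genes tested 1446 and 435. The LRP6KO and dnLEF1 comparisons share the PBS libraries and so are not independent of each other.

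Hosts of SW480 tumours, another colon carcinoma line, had medians nearer to PBS. In SW480 Mock hosts 201 of the 210 higher genes lay above PBS (median 0.69) and 76 of the 81 lower genes below (median -0.58), against 62.2% above and 37.3% below among all genes. Among them 79 passed as higher (37.6%, against 2.01% of all genes), and 15 as lower (18.5%, against 0.356%), while 1 of the 81 lower genes passed as higher. In SW480 dnLEF1 hosts 192 of the 210 lay above PBS (median 0.40) and 59 of the 81 below (median -0.11), against 54.7% and 44.7% of all genes. Of these, 8 passed as higher (3.81%, against 0.285% of all genes), and none as lower (0.0102% of all genes), while 1 of the 81 lower genes passed as higher. The differences between these hosts and those of SW620 tumours were not tested.

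**Figure D3:**
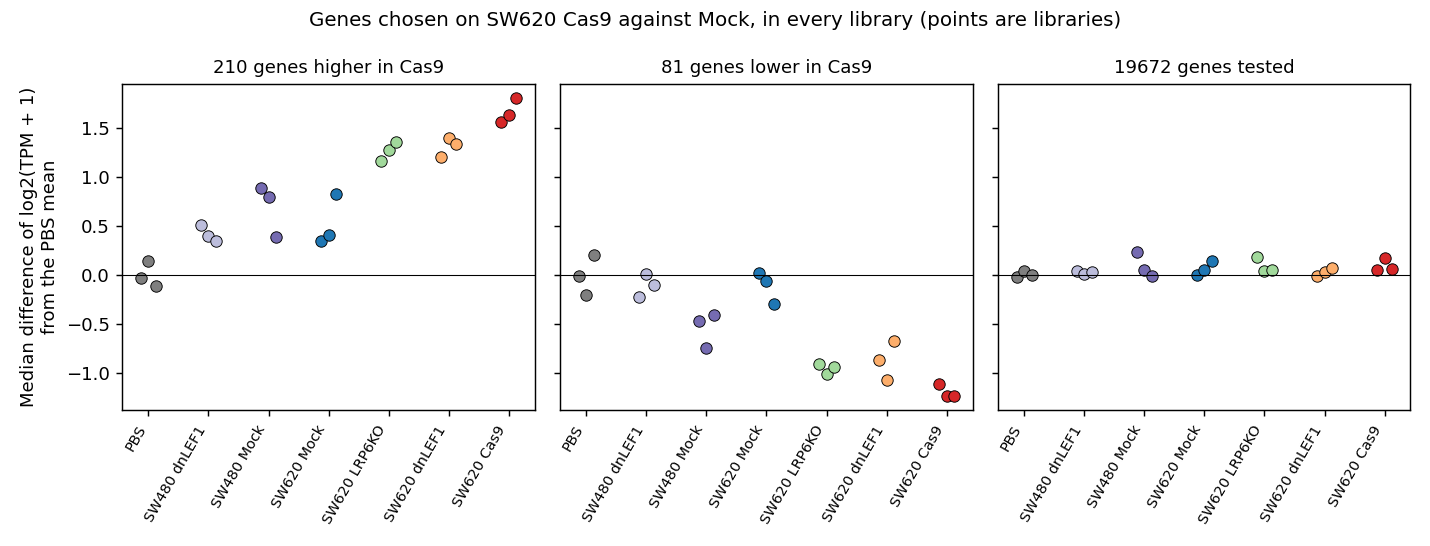
Median difference of log2(TPM + 1) from the PBS mean over the 210 higher genes, the 81 lower genes and all 19672 genes tested, with 1 point per library and the 7 groups along the axis. In the higher genes the Mock hosts sit at 0.35 to 0.83, below the LRP6KO and dnLEF1 hosts at 1.16 to 1.40 and the Cas9 hosts at 1.56 to 1.80, which were used to choose the genes.

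By library, the higher genes stood at a median of 1.56, 1.63 and 1.80 log2 units above PBS in Cas9 replicates 1 to 3. In Mock replicates 1 to 3 they stood at 0.35, 0.41 and 0.83. The SW620 LRP6KO and dnLEF1 libraries lay between these groups, at 1.16 to 1.40, and overlapped neither. For the lower genes the medians were -1.11, -1.23 and -1.23 in Cas9 hosts and 0.02, -0.06 and -0.30 in Mock hosts, with -1.07 to -0.67 in the other SW620 hosts. The Cas9 and Mock values are a description, since they chose the genes.

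Among the Mock hosts, replicate 3 stood nearest to the Cas9 hosts. It was the Mock library closest to the Cas9 mean in 182 of the 210 higher genes (86.7%) and in 53 of the 81 lower genes (65.4%), against 39.9% of all genes tested. Among Cas9 hosts, replicate 1 was the closest to the Mock mean. This held in 101 of the 210 genes (48.1%) and 40 of the 81 (49.4%), against 32.1% of all genes. The called genes were chosen on these same libraries, so the shares for both groups are a description. Without Mock replicate 3 the number of called genes went from 291 to 600. It was 3 without Mock replicate 1, 7 without Mock replicate 2, and 172, 50 and 5 without Cas9 replicates 1, 2 and 3.

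Whole profiles were also compared. The correlation of log2(TPM + 1) over genes was 0.947 to 0.962 between Cas9 hosts, 0.950 to 0.964 between Mock hosts and 0.939 to 0.949 between the groups. The first principal component of the 21 libraries held 20.7% of the variance. Cas9 hosts lay at 46.4, 17.7 and 50.6 on it and Mock hosts at -9.61, -8.57 and 5.04, so that they did not overlap. PBS mice lay at the far side of the Mock hosts, at -58.3 to -31.3, and the SW620 dnLEF1 hosts at 24.6 to 53.4. Of the SW620 LRP6KO hosts, 2 lay at 29.9 and 48.5 and replicate 1 at -20.9. Mouse genes above 0 numbered 27059 and 26095 in LRP6KO replicates 2 and 3, and 37521 in replicate 1. They numbered 24350 to 27749 in SW620 dnLEF1 hosts, 25328 to 29598 in Cas9 hosts and 29901 to 31709 in Mock hosts. PBS replicates 1 to 3, at -31.3, -46.0 and -58.3, had 29434, 34060 and 33355. The first of these was close to the 29598 of Cas9 replicate 2. SW480 dnLEF1 hosts had 34288 to 35251, at -21.7 to -18.7, and SW480 Mock hosts 33442 to 38985, at -50.1 to -10.9. Whether the number of genes detected has a part in this component was not tested.

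**Figure D4:**
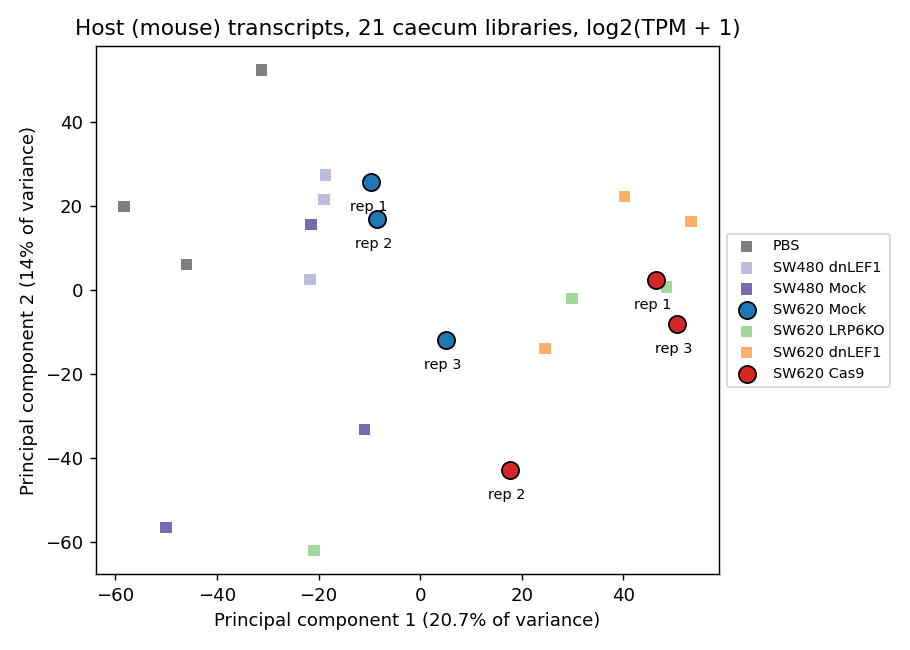
First and second principal components of log2(TPM + 1) over 19672 mouse genes in 21 libraries, with 1 point per library coloured by group; circles with black edges are Cas9 and Mock hosts, with their replicate number. Mock hosts lie between PBS mice and Cas9 hosts on the first component, and Cas9 replicate 2 stands apart from the other Cas9 hosts on the second.

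Of 6 measures of the libraries, 2 did not overlap between the groups and none passed after adjustment. Mouse genes above 0 numbered 25815, 29598 and 25328 in Cas9 hosts and 30469, 31709 and 29901 in Mock hosts, without overlap, where 3 against 3 samples cannot go below 0.1 in a two-sided exact permutation test (p = 0.1, and 0.3 adjusted over 6 measures). Genes of at least 1 TPM overlapped, at 15908 to 17508 and 15613 to 16928 (exact permutation p = 0.7). The share of mouse TPM in the 100 most abundant genes (p = 0.8), the share of genes of 1 to 5 TPM listed at 0 (p = 0.2) and the number of human genes above 0 (p = 0.9) also overlapped (exact permutation tests). In the human table of the same samples, the 13 protein-coding genes of the mitochondrial genome held 4.73% to 5.71% of human TPM in Cas9 tumours and 3.75% to 4.03% in Mock tumours (exact permutation p = 0.1, 0.3 adjusted). The part of these measures in the host differences was not tested. How reads were divided between the organisms is not given in the sources used here. Of the 210 higher genes, 2 were listed at 0 in all PBS libraries, as were 454 of the 19672 genes tested. Whether human reads entered the mouse values was not tested, and these counts cannot show it.

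The other host comparisons that share these libraries had fewer calls. SW620 dnLEF1 hosts differed from the same Mock hosts in 5 genes (0.0254%), 3 higher (0.0153%) and 2 lower (0.0102%), with 2364 genes (12%) at an unadjusted p under 0.05. SW620 LRP6KO hosts differed from the same Cas9 hosts in 0 genes by limma (0%), with 910 (4.63%) at an unadjusted p under 0.05. Cas9 against Mock hosts had 2903 such genes (14.8%). Whether the 3 comparisons differ was not tested, and the counts shift with single libraries: for dnLEF1 against Mock, leaving out Mock replicate 1, 2 or 3 gave 0, 2 or 143 genes, and leaving out dnLEF1 replicate 2 or 3 gave 0 or 12. LRP6KO against Cas9 gave 2 genes without Cas9 replicate 1 or LRP6KO replicate 3 and 1 without LRP6KO replicate 1.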

How the data were processed

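RNA of caecum samples had been made into Smart-seq2 libraries, a full-length cDNA protocol, from extracts with an RNA integrity number of at least 9, per the labels' protocols. The authors deposited TPM per gene in separate mouse and human tables. Per the submitters' processing notes, Trimmomatic 0.35, Bowtie 1.2 and RSEM 1.2.31 were used, with hg38 and mm10 as builds. TPM keeps no depth, so no counting interval is given, and a rise of some genes lowers the values of others.

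A gene was tested where 3 or more of the 21 libraries reached 1 TPM. On log2(TPM + 1), limma 3.58.1 (R 4.3.3) fitted a mean for each of 7 groups, with the spread pooled over groups and a trend of the spread with level. Benjamini-Hochberg adjustment covered all genes of a comparison, and 0.05 was the threshold. Differences on this scale understate the change of low genes. Genes were named by rule as the 2 largest differences each way among called genes whose groups did not overlap and whose higher mean reached 5 TPM. The 28 gene lists prepared are of symbols and could not be applied, since no mouse name table was at hand. The comparison, the rule and the lists were chosen with earlier results of these data known. The test was tried on simulated data. The alternatives were another pseudocount, other filters, median-ratio scaling, a fit of the compared groups alone, array weights, a replicate block and each library left out. Descriptions used Python 3.11.15, pandas 2.3.3 and scipy 1.17.1.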

Additional observations from a re-analysis of the deposited data

How the results depend on the processing

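The number of genes called between Cas9 and Mock hosts depended on the filter, the estimate of the spread and single libraries. From 291 it went to 65 with no filter on low values, to 15 with the compared groups alone in the fit (6 higher and 9 lower, 8 of them among the 291) and to 1320 with array weights. Leaving out each library in turn gave 3 to 600. No pairing of Cas9 and Mock libraries by replicate number was seen. Deviations of same-numbered libraries correlated at 0.019, -2.04e-04 and 0.00267, and not every library correlated best with its own number. With deviations taken from means of 3 libraries, and the other groups not examined, a weak pairing could be missed. With the replicate block the count was 181, 173 of them among the 291, and ENSMUSG00000101730.1 (adjusted p 0.06) and ENSMUSG00000086922.2 (0.0678) did not pass.

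For dnLEF1 against Mock hosts, main count 5, the count was 15 with a pseudocount of 0.1, 3 with no filter, 21 with the filter over the 6 libraries, 9 with the compared groups alone and 319 with array weights. It was 20 for genes of mean at least 5 TPM, an alternative added after the data were seen, and 0 to 143 over left-out libraries. For LRP6KO against Cas9 hosts, main count 0, it was 1 with a pseudocount of 0.1, 3 with the compared groups alone, 0 to 2 over left-out libraries, and 2 without SW480 Mock replicate 2 and LRP6KO replicate 1, which was also added later. No filter adds genes to the adjustment, and the compared groups alone leave fewer samples for the spread. The cause of the other shifts was not tested.

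Of the genes called higher in Cas9 hosts, those that passed as higher than PBS in SW480 dnLEF1 hosts went from 8 to 15 with a pseudocount of 0.1. Without the 6 Cas9 and Mock libraries in the fit they went to 3. All genes tested that passed as higher there went from 56 to 83 and to 32. In SW480 Mock hosts the lower ones went from 15 to 9 in the fit without the 6 libraries. All genes tested that passed as lower there went from 70 to 32. These alternatives were added later.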
